A study of Danio rerio with 6 samples.

Results

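Chaperones and endoplasmic reticulum (ER) folding factors were examined in endothelial cells (ECs) of the zebrafish tail. Members were taken by symbol and comprised heat shock proteins, J proteins, CCT/TRiC subunits, Bag proteins, ER folding factors and the transcription factors and sensors that control them. These were 97 of the 10232 genes in the deposited table. By known role, 51 members were assigned to the cytosol or nucleus, 22 to the ER, 4 to the ER membrane facing the cytosol, 9 to mitochondria and 8 to regulators. The other 3, tcp11l1, tcp11l2 and hspbap1, shared the naming pattern but are not known as chaperones. All embryos carried flk1:GFP, which marks ECs, and UAS:DN-bmal1a, a dominant-negative version of the circadian clock factor Bmal1a that stays silent without GAL4. The 3 control libraries had the genotype flk1:GFP;UAS:DN-bmal1a and the 3 DN-bmal1a libraries flk1:GFP;flk1:GAL4;UAS:DN-bmal1a, so that only the latter carried the driver, under the endothelial flk1 (kdrl) promoter. GFP+ cells were sorted at 36 hours post fertilisation (hpf) from the caudal haematopoietic tissue (CHT), the niche in the tail where blood stem cells expand. Each library came from pooled embryos, and tails were dissociated enzymatically in warmth before the sort in all groups. Nothing in the labels states that replicates came from separate clutches, so p-values measure the spread between these libraries. The groups also differed in carrying GAL4 itself, which cannot be told apart from the transgene it drives.

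Chaperones bind unfolded or partly folded proteins and prevent their aggregation. In the cytosol, Hsp70 proteins take clients from J proteins, release them with the help of nucleotide exchange factors such as Bag proteins, and pass some to Hsp90 or to the CCT ring, which folds actin and tubulin. Cells hold constitutive and stress-inducible forms, and the inducible forms are driven by heat shock factor 1 (Hsf1). In the ER, BiP (hspa5), Grp94 (hsp90b1), the lectins calnexin and calreticulin and the disulphide isomerases fold secreted and membrane proteins, and the sensors Ire1 (ern1), Perk and Atf6 adjust their production through the unfolded protein response. In endothelium this load includes receptors and basement membrane collagens.

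Levels are given as CPM, the reads of a gene per 1000000 reads after the authors' library scaling. CPM is not divided by transcript length, so levels of different genes are not on the same scale. Levels were compared between libraries, and a ranking by level was used to choose some of the named members. Whole reads could be recovered from the CPM, and the libraries held 26161915 to 55004237 of them. Members took 6.44 to 7.42% of the listed reads, and hspa8 alone, the constitutive cytosolic Hsp70, took 21.7% of the member reads. The median member had a mean of 69.2 CPM, against 20.6 CPM over all listed genes. Reads were present in every library for 85 members, and the 12 that lacked reads in at least 1 library all had means under 10 CPM. Most of these gaps lay in DN-bmal1a replicate 2, the library with the fewest reads. It lacked reads for 11 members and 1760 listed genes, against 0 to 5 members and 34 to 865 genes in the other libraries. The targeted gene, listed under its older symbol arntl1a, had 13.6 ± 9.11 CPM in controls and 40.2 ± 16.8 CPM in DN-bmal1a (SD, n = 3 each, groups not overlapping), and reads of the transgene and the endogenous gene cannot be told apart. Endothelial markers were detected in every library, but 10 of the 10 listed had lower fitted levels in DN-bmal1a. Of these, 6 did not overlap between groups, whereas fli1a overlapped with a log2 fold change of only -0.05. The summed level of the 10 was 5865 to 8285 CPM in controls and 3216 to 4687 CPM in DN-bmal1a. Erythroid markers summed to 504 to 1755 CPM in controls and 2214 to 3467 CPM in DN-bmal1a. Of the 6 listed, 5 had higher fitted levels, while gata1a was lower without overlap (log2 fold change -2.31). Keratinocyte markers summed to 6981 to 8514 CPM in controls and 6865 to 8249 CPM in DN-bmal1a. Myeloid markers summed to 6428 to 11044 CPM and 6243 to 9369 CPM, so markers of other cell types were present in every library. The part of any of these lists in the members' values was not tested. In bulk samples, fewer cells of a type and less RNA per cell cannot be told apart.

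The first question was whether members differed between DN-bmal1a and control ECs as a group. They did not move in 1 direction, and the values of most members overlapped between groups. Among those that did not overlap, the inducible Hsp70 genes hsp70l and hsp70.1 and the collagen chaperones serpinh1a and serpinh1b had lower values in DN-bmal1a. Higher values were seen for atf6, pdia6 and several CCT subunits. No member passed an adjusted p of 0.05 with a fold of at least 2 in the limma fit over all 10232 genes, where 0.00977% of genes were called. By DESeq2 on the recovered reads, 1 member, atf6, passed the same thresholds, where 1.87% of genes were called (1.68% lower and 0.19% higher), and by edgeR's quasi-likelihood and exact tests 0 did, where 0% and 0.371% were called (exact test 0.342% lower and 0.0293% higher). Without a fold threshold DESeq2 called 7 members, 4 lower and 3 higher, beside 2.51% of all genes (2.03% lower and 0.489% higher), and the exact test called 0, beside 0.381% (0.342% lower and 0.0391% higher). At an unadjusted p under 0.05 limma counted 11 members (11.3%), 7 lower and 4 higher, beside 11.2% of all genes (8.12% lower and 3.1% higher). The quasi-likelihood test counted 10, 6 lower and 4 higher, beside 7.86% of all genes (5.23% lower and 2.63% higher), the exact test 7, 4 lower and 3 higher, beside 6.61% (4.94% lower and 1.67% higher), and DESeq2 14, 7 lower and 7 higher, beside 10.2% (6.17% lower and 4.07% higher). The values of the groups did not overlap for 21 members (21.6%), 10 lower and 11 higher, beside 17.7% of all genes (10.7% lower and 7% higher). By limma the shares at an unadjusted p under 0.05 were near those among all genes, whereas the share of members higher without overlap (11.3% against 7%) exceeded it. Members called by DESeq2 without a fold threshold exceeded the share of all genes in both directions. With the fold threshold only the higher direction did, through 1 gene, atf6. The DESeq2 setting without a fold threshold was chosen after seeing the data. Without a fold threshold limma and the quasi-likelihood test called 0 members, beside 0.00977% and 0% of all genes. Whether members differ from other genes was not tested. The median log2 fold change of members was -0.04, beside -0.13 over all genes. Log2 fold changes are DN-bmal1a minus control on the log2(CPM + 1) scale unless a count test or another setting is named. For low or uneven genes this scale can give smaller or larger changes than count tests. By the exact test dnajc18 had -4.74, beside -1.75 on this scale, and bag1 had 0.98, beside 1.29.

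Classes differed in their median. The cytosolic Hsp class had a median log2 fold change of -0.29 with 12 of 17 genes below 0, the cytosolic J proteins -0.27 with 14 of 20 below 0, and the Bag class -0.48 with 4 of 7 below 0. The CCT subunits had a median of 0.15 with 7 of 7 above 0, the ER class -0.02 with 11 of 22 below 0, the mitochondrial genes 0.04 and the regulators 0.08. Over all genes 41.9% lay above 0. Single libraries weighed on the negative medians. Without DN-bmal1a replicate 2 they were -0.13 (Hsp), -0.09 (J proteins) and -0.09 (Bag), beside -0.06 over all genes. The Bag median was -0.26 without control replicate 3 and -0.14 without DN-bmal1a replicate 1, and the Hsp median was -0.15 without control replicate 3 and -0.47 without control replicate 1. After quantile normalization the J protein median was -0.05, beside 0.04 over all genes. These are descriptions of the lists, and the difference between classes was not tested.

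**Figure D1:**
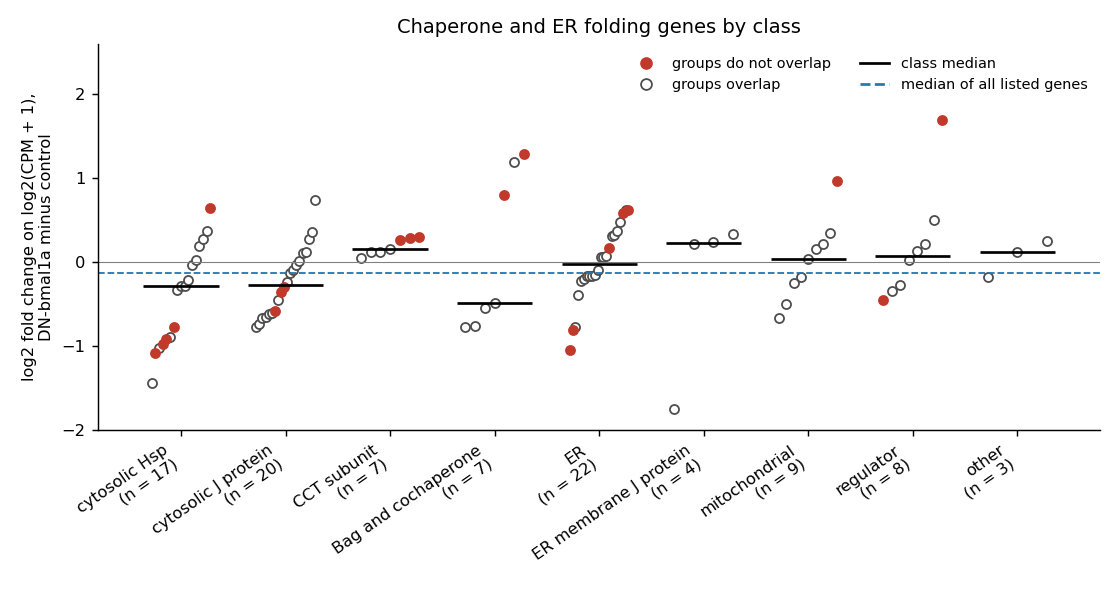
Log2 fold change of each member (y axis, DN-bmal1a minus control on log2(CPM + 1)) by class (x axis), with filled points for genes whose 3 values per group did not overlap, class medians as bars and the median of all listed genes (-0.13) as a dashed line. The 7 CCT subunits lie above 0, and the ER class spans -1.04 to 0.62 around a median of -0.02.

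Among cytosolic heat shock proteins, the stress-inducible Hsp70 genes had lower values. The level of hsp70l, a heat-inducible Hsp70, was 1510, 1611 and 1133 CPM in controls and 884, 566 and 717 CPM in DN-bmal1a. The highest DN-bmal1a library lay under the lowest control. The log2 fold change was -0.98 (SE 0.21), with a limma adjusted p of 0.218 over all genes and a DESeq2 adjusted p of 0.00139, short of the 2-fold threshold (range of adjusted p over all alternatives 0.00139 to 0.557). A second inducible gene, hsp70.1, had 909, 908 and 657 CPM in controls and 562, 424 and 459 CPM in DN-bmal1a. The groups again did not overlap, and the log2 fold change was -0.77 (SE 0.19, limma adjusted p 0.239, DESeq2 adjusted p 0.0112, range 0.0112 to 0.574). Further copies of hsp70.1 are annotated in RefSeq (GRCz12tu), and how reads were split between inducible Hsp70 copies is not known, so both values are uncertain as values of single genes.

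Groups overlapped for hspa8, the Hsp90 genes and hspb1, and whether inducible genes differ from constitutive ones was not tested. Controls held hspa8 at 17015, 14923 and 13557 CPM and DN-bmal1a at 16616, 14800 and 14870 CPM, with the groups overlapping and a log2 fold change of 0.03 (95% interval -0.39 to 0.45). Hsp90 isoforms overlapped as well. The constitutive hsp90ab1 had a log2 fold change of 0.19 (-0.18 to 0.56) and hsp90aa1.2 of -0.28 (-0.78 to 0.21). The muscle-associated hsp90aa1.1, needed for myosin folding in zebrafish muscle, stayed between 39.2 and 65.4 CPM in all libraries, with a log2 fold change of -0.04, while the summed skeletal muscle markers ranged from 1427 to 4996 CPM in controls and from 970 to 4358 CPM in DN-bmal1a. The small heat shock protein hspb1 overlapped, with 74.1 to 182.8 CPM in controls and 104.9 to 281.9 CPM in DN-bmal1a. The intervals leave room for changes of either sign in each of these genes.

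The atypical Hsp70 genes differed from one another. The level of hspa12b, enriched in endothelium in mammals, was 102.0, 130.6 and 106.0 CPM in controls and 101.7, 31.7 and 63.6 CPM in DN-bmal1a. Replicate 1 of DN-bmal1a lay just under the lowest control, and its other libraries lay well below. Its log2 fold change was -0.91 (SE 0.38, limma adjusted p 0.425), and -0.47 without DN-bmal1a replicate 2. The lower endothelial marker level described above went in the same direction, and its part in the value of hspa12b was not tested. Its relative hspa12a had 45.6, 48.5 and 36.4 CPM in controls against 27.9, 7.99 and 33.7 CPM, a log2 fold change of -1.09 (SE 0.53, limma adjusted p 0.489), and -0.48 without DN-bmal1a replicate 2. In the opposite direction, hspa14, known in mammals as a ribosome-associated Hsp70, had 73.1, 68.4 and 57.0 CPM in controls and 118.4, 80.3 and 117.2 CPM in DN-bmal1a. The groups did not overlap, with a log2 fold change of 0.65 (SE 0.25, limma adjusted p 0.391). The remaining listed genes of the class, among them hspa4a, hspa4b and 5 other hspb genes, overlapped between groups.

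J proteins deliver clients to Hsp70 and set which ones it binds. Summed over the 20 cytosolic J proteins, the level was 1827 to 1909 CPM in controls and 1503 to 1600 CPM in DN-bmal1a. Most of this sum came from dnajb1b, a relative of the heat-inducible mammalian DNAJB1. Its values were 1037, 1055 and 902 CPM in controls and 802, 828 and 799 CPM in DN-bmal1a. They did not overlap, although the log2 fold change was only -0.30 (SE 0.14, limma adjusted p 0.483). The second DNAJB1 copy, dnajb1a, overlapped between groups at 51.2 to 57.0 CPM in controls and 51.6 to 70.5 CPM in DN-bmal1a. Among class A J proteins, dnaja2l did not overlap, with 76.8, 90.8 and 106.3 CPM in controls against 61.2, 68.9 and 51.0 CPM (log2 fold change -0.59, SE 0.25, limma adjusted p 0.434). The related dnaja1 had 113.8 to 156.7 CPM in controls and 92.1 to 109.8 CPM in DN-bmal1a (log2 fold change -0.36), whereas dnaja2 overlapped (-0.09). The level of dnajc7, a J protein that also binds Hsp90, overlapped, with a log2 fold change of -0.62 that became -0.23 without DN-bmal1a replicate 2.

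Bag proteins and related cochaperones release nucleotide from Hsp70 and route its clients. The level of bag6, which guards hydrophobic stretches of new membrane proteins, was 34.1, 52.8 and 52.7 CPM in controls and 61.2, 102.4 and 82.6 CPM in DN-bmal1a. The groups were separated, with a log2 fold change of 0.80 (SE 0.31, limma adjusted p 0.385). The values of bag1 also did not overlap, at 1.52, 15.5 and 11.6 CPM in controls and 16.4, 19.9 and 20.3 CPM in DN-bmal1a. Here 1 library weighed heavily, since its log2 fold change of 1.29 became 0.45 without control replicate 1. The stress-inducible bag3, which directs clients to autophagy, had 22.6 to 35.3 CPM in controls and 12.3 to 23.4 CPM in DN-bmal1a and overlapped (-0.76). In bag4 the log2 fold change of -0.78 rested on the 9.66 CPM of DN-bmal1a replicate 1 and was -0.14 without it. The exchange factor hspbp1 overlapped as well (-0.48, and -0.09 without DN-bmal1a replicate 2).

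**Figure D2:**
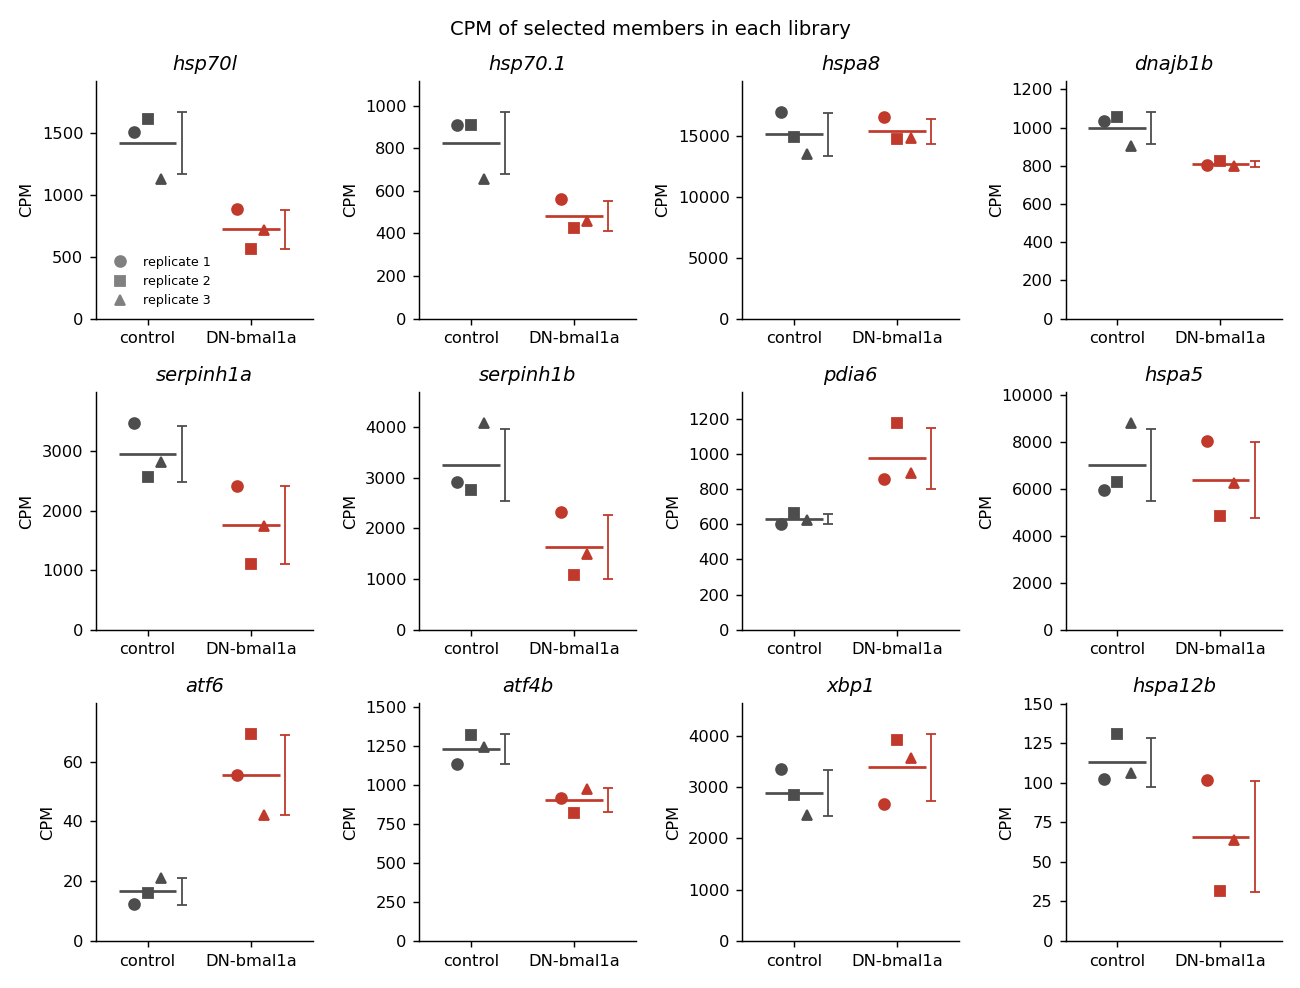
CPM (y axis, linear from 0) of 12 selected members in the 3 control and 3 DN-bmal1a libraries (x axis), with replicates as separate symbols, horizontal lines at group means and bars of 1 SD. The groups separate for hsp70l, hsp70.1, dnajb1b, serpinh1a, serpinh1b, pdia6, atf6 and atf4b and narrowly for hspa12b, and overlap for hspa8, hspa5 and xbp1.

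The subunits of the CCT ring showed small differences of 1 sign. The 7 listed ones all had positive log2 fold changes, from 0.04 for cct7 to 0.30 for cct8, and their summed level was 6623 to 6951 CPM in controls and 7599 to 7986 CPM in DN-bmal1a. The most tightly measured was cct4, with 2538, 2531 and 2544 CPM in controls and 3055, 2967 and 3110 CPM in DN-bmal1a. The gap between the groups was far wider than the spread within either. Its log2 fold change was 0.26 (SE 0.14), the limma adjusted p was 0.526 and the DESeq2 adjusted p was 0.0395 (range over all alternatives 0.0395 to 1). Subunits cct6a (520.8 to 540.9 CPM in controls, 596.3 to 702.8 CPM in DN-bmal1a) and cct8 (364.7 to 393.9 CPM against 403.7 to 508.9 CPM) did not overlap either. The other 4 subunits, tcp1, cct3, cct5 and cct7, overlapped. All 7 stayed above 0 in 13 of the 15 alternatives, and cct7 was at -0.06 without control replicate 1 and at -0.03 without DN-bmal1a replicate 2.

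**Figure D3:**
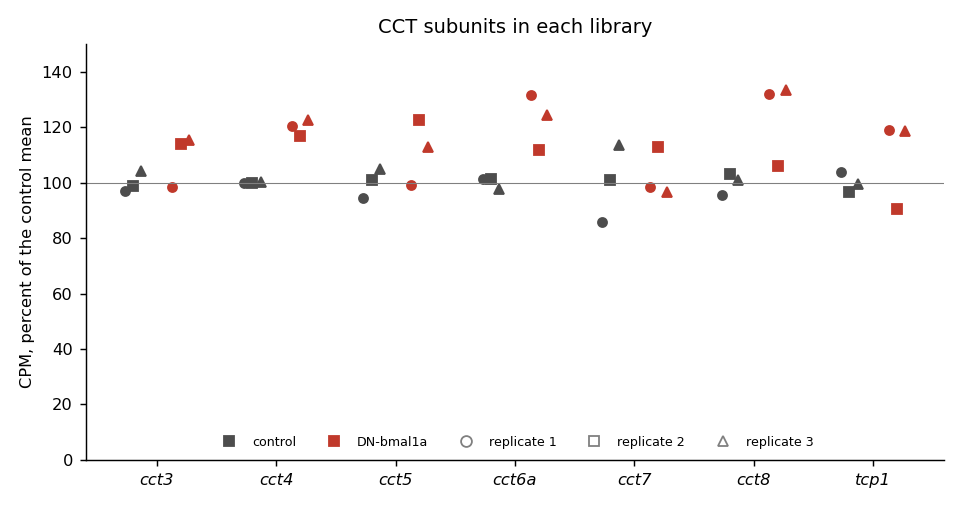
CPM of each listed CCT subunit in each library as a percentage of that gene's control mean (y axis), by gene (x axis), with groups in colours and replicates as symbols. Control values of cct4 lie close together at 100%, and the DN-bmal1a values of cct4, cct6a and cct8 lie above every control value of the same gene.

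In the ER class, the 2 copies of Hsp47, the collagen-specific chaperone, had the most negative log2 fold changes. The level of serpinh1b was 2920, 2751 and 4071 CPM in controls and 2312, 1081 and 1490 CPM in DN-bmal1a. The level of serpinh1a was 3473, 2561 and 2828 CPM in controls and 2419, 1108 and 1753 CPM in DN-bmal1a. Neither gene overlapped between groups, with the highest DN-bmal1a value in replicate 1 for both. The log2 fold change of serpinh1b was -1.04 (SE 0.27), with a limma adjusted p of 0.256. Its DESeq2 adjusted p was 0.021 (range over all alternatives 0.021 to 0.657), at a DESeq2 log2 fold change of -0.98, short of the 2-fold threshold. For serpinh1a the log2 fold change was -0.81 (SE 0.27, limma adjusted p 0.339), and -0.51 without DN-bmal1a replicate 2. Fibroblast and notochord markers, among them the collagen genes col1a1a, col1a2 and col2a1a, summed to 356 to 820 CPM in controls and 273 to 534 CPM in DN-bmal1a, and 7 of the 7 listed had negative log2 fold changes. Their part in the values of the Hsp47 genes was not tested.

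The 5 disulphide isomerase members with pdia symbols differed from one another. The level of pdia6, which also limits signalling by the Ire1 sensor in mammals, was 602, 664 and 625 CPM in controls and 859, 1176 and 894 CPM in DN-bmal1a. All DN-bmal1a libraries lay above all controls, with a log2 fold change of 0.62 (SE 0.17), a limma adjusted p of 0.268 and a DESeq2 adjusted p of 0.0108 (range over all alternatives 0.0108 to 0.642). The isomerase pdia4 was also separated, but by little, at 1203 to 1340 CPM in controls and 1345 to 1490 CPM in DN-bmal1a (0.17). In contrast, pdia3, which works with calnexin and calreticulin, overlapped (0.07). The 2 others overlapped with negative values, at 42.6 to 102.3 CPM in controls and 19.2 to 61.0 CPM in DN-bmal1a for pdia5 (-0.78, and -0.32 without DN-bmal1a replicate 2) and at 40.9 to 76.1 CPM and 28.0 to 70.4 CPM for pdia2 (-0.17).

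The general ER folding machinery overlapped between groups. Controls held hspa5 at 5965, 6296 and 8797 CPM and DN-bmal1a at 8041, 4829 and 6248 CPM (log2 fold change -0.15, 95% interval -0.68 to 0.38). Its partners hsp90b1 (-0.20, interval -0.72 to 0.32) and hyou1, a nucleotide exchange factor for BiP (0.06, interval -0.31 to 0.43), behaved alike in that neither separated the groups. The lectins calr (-0.17), calr3b (-0.22) and canx (-0.10) overlapped too. The level of dnajc3a, the BiP cochaperone that also restrains Perk, was 95.6, 190.8 and 238.6 CPM in controls and 254.4, 238.2 and 260.3 CPM in DN-bmal1a. Only the 238.6 CPM of control replicate 3 reached the DN-bmal1a range, and the log2 fold change of 0.62 (SE 0.30, limma adjusted p 0.49) became 0.23 without control replicate 1. The low J protein dnajc25 did not overlap (4.25 to 5.67 CPM against 5.93 to 9.79 CPM). Among J proteins of the ER membrane, dnajc18 had the most negative log2 fold change of all members, -1.75 (SE 0.85), with 0, 7.76 and 5.45 CPM in controls and 0, 0 and 0.48 CPM in DN-bmal1a, and these groups overlapped at 0.

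Mitochondrial chaperones gave no gene at an unadjusted p under 0.05 by limma, either edgeR test or DESeq2. Among all genes the shares were 11.2% (limma), 7.86% (quasi-likelihood), 6.61% (exact test) and 10.2% (DESeq2), and the class held only 9 genes. The Hsp60 gene hspd1 had 365.2 to 503.6 CPM in controls and 375.6 to 569.1 CPM in DN-bmal1a (0.04), and its lid hspe1 had 321.1 to 379.4 CPM against 331.1 to 462.0 CPM (0.22). The mitochondrial Hsp70 hspa9 overlapped, with DN-bmal1a replicate 1 at 657.8 CPM above the other 5 libraries (313.3 to 409.5 CPM). Of the 9 genes, only dnajc15, a J protein of the inner membrane import motor, did not overlap, at 5.14, 12.8 and 10.3 CPM in controls and 23.1, 17.2 and 15.2 CPM in DN-bmal1a (log2 fold change 0.97, SE 0.58, limma adjusted p 0.576). The class thus had 11.1% higher and 0% lower without overlap, beside 7% and 10.7% of all genes.

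Regulators were examined next, since transcription of xbp1 is itself raised during ER stress. The level of atf6, the ER membrane-bound factor released by proteolysis, was 12.4, 16.2 and 21.1 CPM in controls and 55.4, 69.1 and 42.2 CPM in DN-bmal1a. The lowest DN-bmal1a library stood at 2-fold the highest control, and on the mean the level was 3.36-fold higher. The log2 fold change was 1.69 (SE 0.39, limma adjusted p 0.223), and it was called by DESeq2 (adjusted p 0.00301, range over all alternatives 0.00301 to 0.557). It lay between 1.297 and 1.873 in all 15 alternatives. The genes of the Ire1 branch and ddit3 did not separate the groups. The level of xbp1, the target of Ire1, was 2465 to 3351 CPM in controls and 2663 to 3918 CPM in DN-bmal1a (0.22), and gene counts do not show its splicing. The Ire1 gene ern1 had 12.0 to 17.1 CPM against 8.20 to 13.3 CPM (-0.35), and ddit3, which encodes the stress factor Chop, had 915.5 to 1111 CPM against 650.5 to 1097 CPM (-0.27).

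The paired copies of Atf4, the effector of the integrated stress response, differed in pattern. The level of atf4b was 1130, 1317 and 1239 CPM in controls and 917, 816 and 972 CPM in DN-bmal1a, without overlap (log2 fold change -0.45, SE 0.15, limma adjusted p 0.352, DESeq2 adjusted p 0.0487, range over all alternatives 0.0487 to 0.875). The level of atf4a was 609.5, 533.2 and 449.4 CPM in controls and 459.6, 777.2 and 536.6 CPM in DN-bmal1a and overlapped (0.13). The heat shock factors overlapped, with 25.7 to 33.5 CPM against 28.5 to 54.9 CPM for hsf1 (0.50) and 11.7 to 22.7 CPM against 16.3 to 16.8 CPM for hsf2 (0.02).

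**Figure D4:**
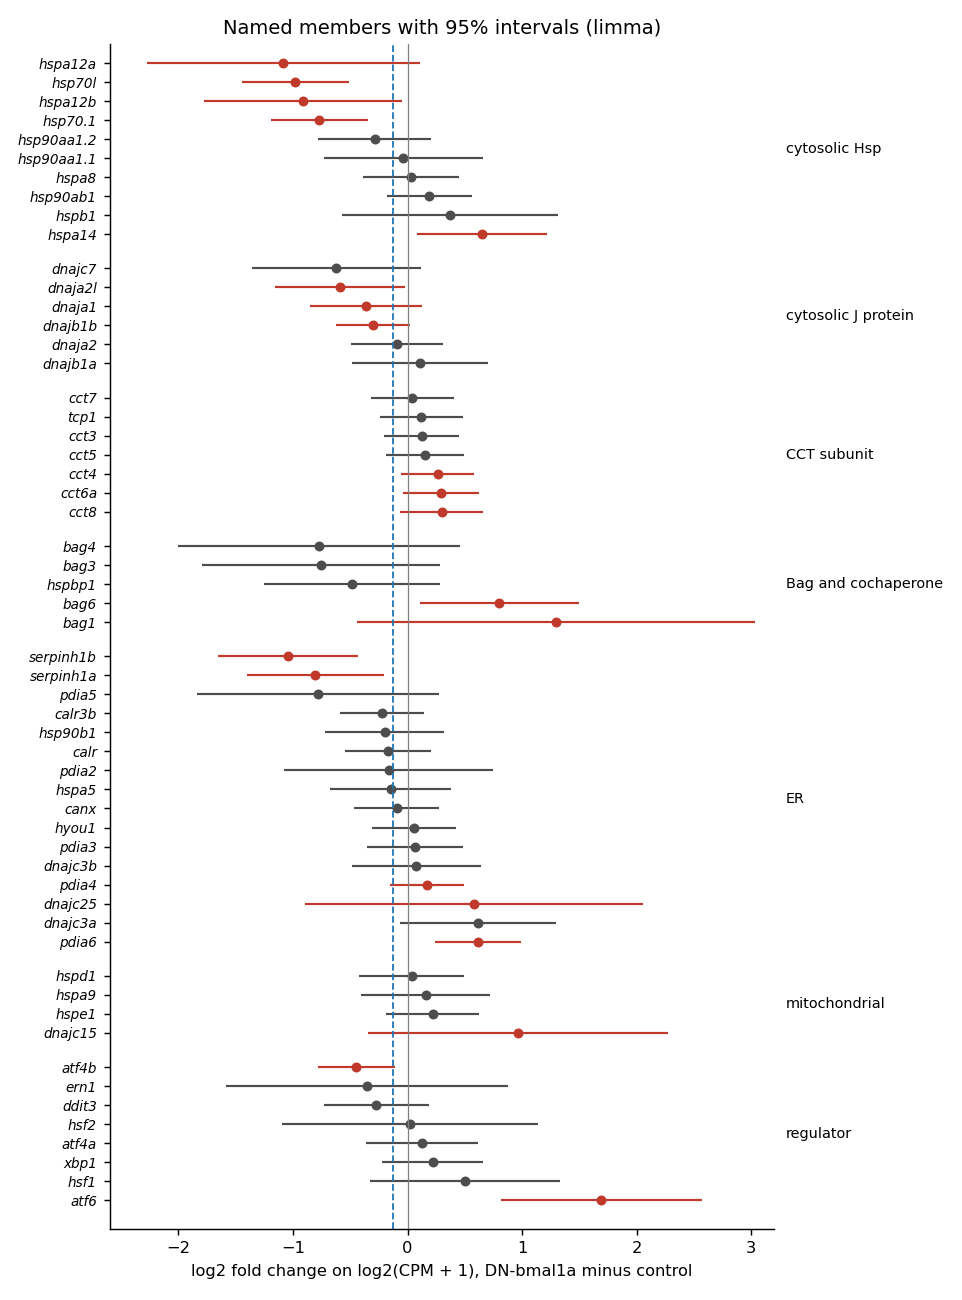
Log2 fold change on log2(CPM + 1) (x axis) of the named members except dnajc18 with limma 95% intervals, grouped by class, in red where the 3 values per group did not overlap, with the median of all genes (-0.13) as a dashed line. The intervals exclude 0, before adjustment, for the 11 members at an unadjusted p under 0.05, among them hsp70l, serpinh1b, pdia6 and atf6, and those of hspa8, hspa5, xbp1 and all CCT subunits include it.

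Ratios between related members were then computed within each library, since such a ratio does not depend on the scaling of the library. In all, 15 pairs were computed, chosen after their values were seen and therefore given without a test, and 5 did not overlap between groups. No share was computed for unselected pairs, and the groups failed to overlap in 17.7% of single genes. The ratio of inducible hsp70l to constitutive hspa8 was 0.0888, 0.108 and 0.0836 in controls and 0.0532, 0.0382 and 0.0482 in DN-bmal1a (change in the log2 ratio -1.01, SE 0.18). The ratio of hsp70.1 to hspa8 changed by -0.80 (SE 0.12). These ratios rest on the same hsp70l and hsp70.1 values as above. The ratio of hsp70l to hsp70.1 was also lower (1.66 to 1.77 in controls, 1.34 to 1.57 in DN-bmal1a), as was that of dnajb1b to dnajb1a (17.6 to 18.5 against 11.3 to 15.5). The ratio of dnajc3a to dnajc3b was higher (0.441 to 0.640 against 0.677 to 0.980). The ratio of atf4a to atf4b overlapped, at 0.363 to 0.539 in controls and 0.501 to 0.953 in DN-bmal1a, and the ratio of serpinh1a to serpinh1b overlapped at 0.695 to 1.19 and 1.02 to 1.18.

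**Figure D5:**
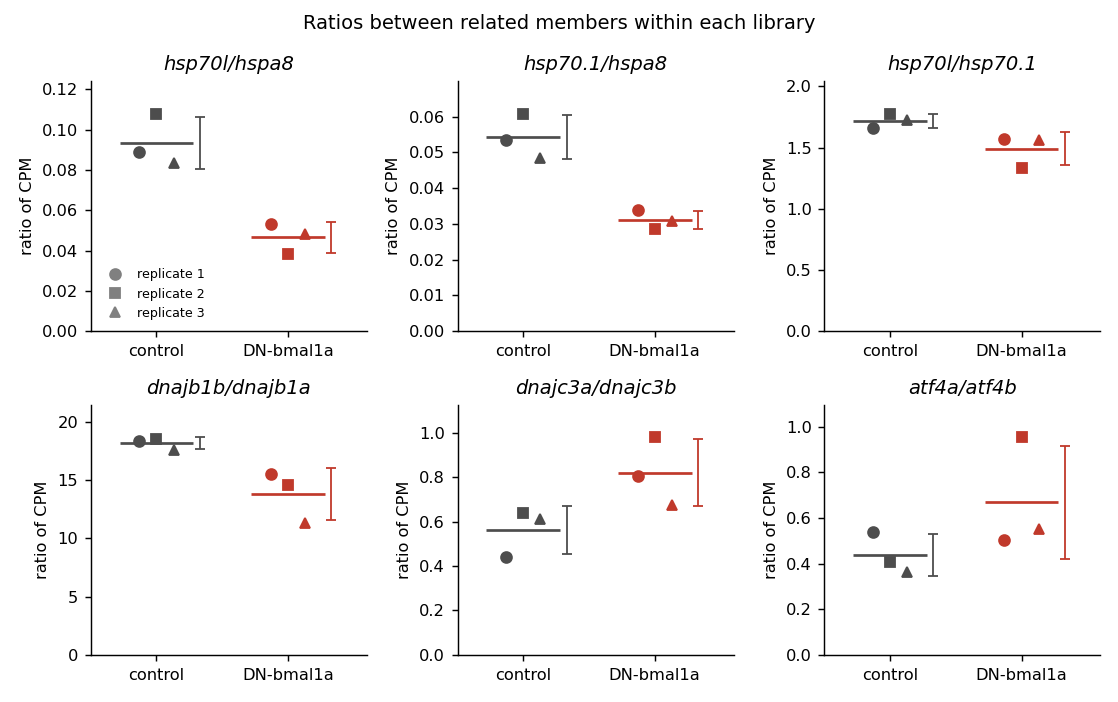
Ratio of CPM within a library (y axis, linear from 0) for 6 pairs of related members in the 3 control and 3 DN-bmal1a libraries (x axis), with lines at group means and bars of 1 SD. The first 5 ratios separate the groups, and atf4a/atf4b does not.

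Genes of the same pathways that are not members were taken from lists of known partners. Of 18 listed Hsp70 and Hsp90 partners, 2 were lower at an unadjusted limma p under 0.05 (11.1%, beside 8.12% of all genes). These were st13, an Hsp70 cochaperone, and ahsa1b, an activator of the Hsp90 ATPase. At an unadjusted p under 0.05 the quasi-likelihood test and DESeq2 each counted 1 partner as lower, and the exact test 0. The shares of all genes were 5.23%, 6.17% and 4.94%. By limma at the same threshold vbp1, a subunit of the prefoldin complex that feeds CCT, was higher (5.56%, beside 3.1%). The level of vbp1 was 47.4, 65.2 and 51.5 CPM in controls and 78.2, 120.6 and 107.3 CPM in DN-bmal1a (log2 fold change 0.88, SE 0.27, limma adjusted p 0.298). Of 30 listed genes of ER folding and degradation, 3 were higher (10%, beside 3.1% of all genes) and 1, fkbp9, was lower (3.33%, beside 8.12%) by the same measure. The higher ones were sec61b (0.57), a subunit of the translocon, derl1 (0.45), a channel component for degradation, and manf (0.44), an ER stress-inducible factor, each without overlap. Their list summed to 4149 to 4715 CPM in controls and 4749 to 5179 CPM in DN-bmal1a. The quasi-likelihood test, the exact test and DESeq2 counted 3, 1 and 3 genes of this list as higher. The shares of all genes were 2.63%, 1.67% and 4.07%. Each of these tests counted 1 gene as lower, beside 5.23%, 4.94% and 6.17% of all genes. None of 17 listed genes of stress response signalling passed an unadjusted p under 0.05 by limma, either edgeR test or DESeq2. Among all genes the shares were 11.2% (limma), 7.86% (quasi-likelihood), 6.61% (exact test) and 10.2% (DESeq2). In that list asns was lower without overlap (5.88%, beside 10.7% of all genes) and atf5a higher (5.88%, beside 7%). Of 7 mitochondrial proteostasis genes, afg3l2 was lower by limma (14.3%, beside 8.12% of all genes) but by neither edgeR test nor DESeq2, and it had 0 reads in DN-bmal1a replicate 2. DESeq2 counted 1 other gene of that list as higher at an unadjusted p under 0.05 (14.3%, beside 4.07% of all genes).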

How the data were processed

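Total RNA from sorted ECs was amplified with the SMARTer Ultra Low kit and tagged with Nextera XT. The submitters' processing notes name bcl2fastq 2.20.0, STAR 2.7.0f, HTSeq 0.9.1, edgeR 3.38.4 and GRCz11, whereas the study's methods name GRCz10, so no coordinates are given. The authors deposited a normalised signal per gene, CPM on edgeR-scaled library sizes, which does not sum to 1000000 in a library. Of the deposited values, 100% were whole multiples of 1 read (tolerance 0.01), and reads were recovered from them. Listed genes each had reads in at least 3 libraries. The main test, planned for CPM, was limma 3.58.1 (R 4.3.3, empirical Bayes with trend) on log2(CPM + 1), with Benjamini-Hochberg adjustment over all 10232 genes. On recovered reads, edgeR 4.0.16 called 0 (quasi-likelihood) and 38 (exact test) genes and DESeq2 1.42.0 called 187 of 10022 with an adjusted p. The scripts were tested on simulated data with planted changes larger than most reported here, so that run does not measure power at these sizes. Depth differed between libraries, and intervals cover the spread between 3 libraries per group. A single-gene exact permutation test cannot go below p = 0.1. Members, lists and partners were chosen with earlier results of these data known. Of 57 named members, 37 followed a rule (the 3 highest by level in each class, all regulators, inducible and marker chaperones, the lowest p in each direction, any call) and 20 were named after their values were seen. Unused sample columns numbered 0. Replicate libraries differed beyond sampling noise. No gene sequence was used. Alternatives covered the pseudocount, a filter on low values, normalization, a replicate block, each library left out and count tests.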

Additional observations from a re-analysis of the deposited data

How the results depend on the processing

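The number of members past an adjusted p of 0.05 and 2-fold was 0 in the limma fit and in all but 2 alternatives, with 1 (atf6, log2 fold change 1.77) by DESeq2 and 7 (hsp70l, hsp70.1, serpinh1b, atf4b, atf6, pdia6 and cct4) by DESeq2 without a fold threshold, an alternative chosen after seeing the data. At an unadjusted p under 0.05 the count was 11, 7 by the edgeR exact test, and 7 to 13 with 1 library left out, lowest without control replicate 2. Over all 10232 genes the same counts were 1148, 676 and 754 to 1531. Members without overlap numbered 21, and 27 to 34 with 1 library left out, where smaller groups separate more easily. Genes without overlap numbered 1806 over all 10232, and 2508 to 3390 with 1 library left out. The median over all members was -0.04, 0.11 after quantile normalization and -0.19 to 0.036 with 1 library left out. The cytosolic median was -0.21, -0.048 with a pseudocount of 10, 0.02 after quantile normalization and -0.31 to -0.040 with 1 library left out, and that of regulators was 0.08 and -0.031 to 0.24. The median of all genes was -0.13, and 0.04 after quantile normalization. Of 57 named genes, 41 kept their direction over 15 alternatives. The other 16 all overlapped between groups. Without a library they ranged from -0.084 to 0.29 (atf4a), -0.22 to 0.011 (canx), -0.064 to 0.14 (cct7), -0.20 to 0.019 (dnaja2), -0.017 to 0.20 (dnajb1a), -0.14 to 0.28 (dnajc3b), -0.20 to 0.25 (hsf2), -0.24 to 0.12 (hsp90aa1.1), -0.33 to 0.036 (hspa5), -0.049 to 0.12 (hspa8), -0.14 to 0.39 (hspa9), -0.056 to 0.74 (hspb1), -0.12 to 0.18 (hspd1), -0.028 to 0.18 (hyou1), -0.40 to 0.25 (pdia2) and -0.065 to 0.21 (pdia3). The value of hsf2 was -0.028 by both edgeR tests and -0.0078 by DESeq2, and that of hsp90aa1.1 was 0.023 after quantile normalization, 0.026 after rescaling to the same sum and 0.013 by DESeq2. The cause of these shifts was not tested. Same-numbered libraries did not deviate together (r = -0.0735, -0.0114 and 0.00247 across genes). With the replicate number as a block 0 members passed the adjusted threshold and 10 the unadjusted one, beside 1 and 1021 of all 10232 genes. Values of the 21 members with means under 10 CPM are uncertain, since 12 of them lacked reads in at least 1 library. For example, dnajc17 had 0 reads in DN-bmal1a replicate 2 and 251 to 727 in the other libraries. The cause of such gaps was not tested.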
